A study of Mus musculus with 2 samples.

Results

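Heat shock proteins and their cochaperones were followed in apoptotic osteoblasts, bone-forming cells killed with ultraviolet light, from old and from young mice. The group holds 33 genes of 55487 in the deposited table, chosen by symbol as cytosolic and mitochondrial heat shock proteins, J-proteins and cochaperones. There was 1 RNA sequencing library per age, so no difference has a replicate check, no test was run, and each comparison is one of these libraries. The old library is labelled day 5 and the young library day 0 in a treatment field whose meaning is not explained, so age and day cannot be told apart. Marrow stromal cells from cultured bone pieces of either age had been passaged 3 times, kept in osteogenic medium for 3 days and exposed to ultraviolet light for 0.5 h, after which over 90% took up Trypan Blue, a dye of leaky cells. Both libraries are therefore of dying cells, and osteoblasts without ultraviolet light were not analysed here. The labels give neither the ages in months nor the number of mice or cultures that went into each library.

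Heat shock proteins hold unfolded proteins in a state from which they can fold. HSP70 proteins bind short unfolded stretches in a cycle driven by ATP, J-proteins hand clients to them and start ATP hydrolysis, and HSP110 proteins and BAG proteins release the nucleotide. HSP90 acts later, on kinases and steroid receptors among others, small heat shock proteins keep clients soluble without ATP, and the HSP60 and HSP10 chaperonin folds proteins inside mitochondria. Heat shock factor HSF1 switches on many of these genes under stress by binding heat shock elements, repeats of a GAA unit in alternating direction.

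The chaperone mRNAs were close to even between the libraries, with a few genes apart. Hspb6 and Cryab, which encode small heat shock proteins, the inducible HSP70 gene Hspa1b, the mitochondrial HSP70 gene Hspa9 and the cochaperone gene Bag3 were higher in the old library, while the J-protein gene Dnaja4 and the factor Hsf2 were lower. The most abundant cytosolic chaperones, Hsp90ab1 and Hspa8, differed little. FPKM is a read number scaled to gene length and library size, and a log2 ratio here is that of FPKM + 1, old over young, which understates differences of low genes. Of the 33 genes, 31 had a mean of at least 1 FPKM and are called measured, and the exceptions were Hspa1a and Hspb7. On the FPKM + 1 scale no measured gene of the group was 2-fold higher or lower, against 1.97% of 12561 measured genes that were higher and 0.868% that were lower. The plain FPKM ratio of Hspb6 was 2.02. On FPKM + 1, 7 genes (22.6%) were at least 25% higher, namely Hspb6, Hspa1b, Hspa9, Cryab, Hspa2, Bag3 and Hspd1, against 12.3% of all measured genes. Dnaja4 and Hsf2 (6.45%) were at least 20% lower, the same fold in the other direction, against 17.2% of all.

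The median log2 ratio of the 31 genes was 0.02, and that of all measured genes −0.07. Above 0 lay 19 of the 31 (61.3%), against 40.4% of all measured genes. The scaling moves these counts: when old values were divided by the median ratio of measured genes, 8 chaperone genes were at least 25% higher and 1 at least 20% lower, against 15.7% and 12.4% of all genes measured under that scaling. The higher share of such calls over all genes was then 55.8%, against 41.8% as deposited. Above 0 still lay 19 of the 31 chaperone genes, but this scaling sets the median of all genes at 0.0003, near an even split. When rescaled without the 10 most abundant genes of each library, 17 of the 31 lay above 0, where the median of all genes was −0.07. In bulk RNA, fewer cells of a type and less RNA per cell cannot be told apart. The 33 genes together took 0.777% of reads in the old library and 0.727% in the young.

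**Figure D1:**
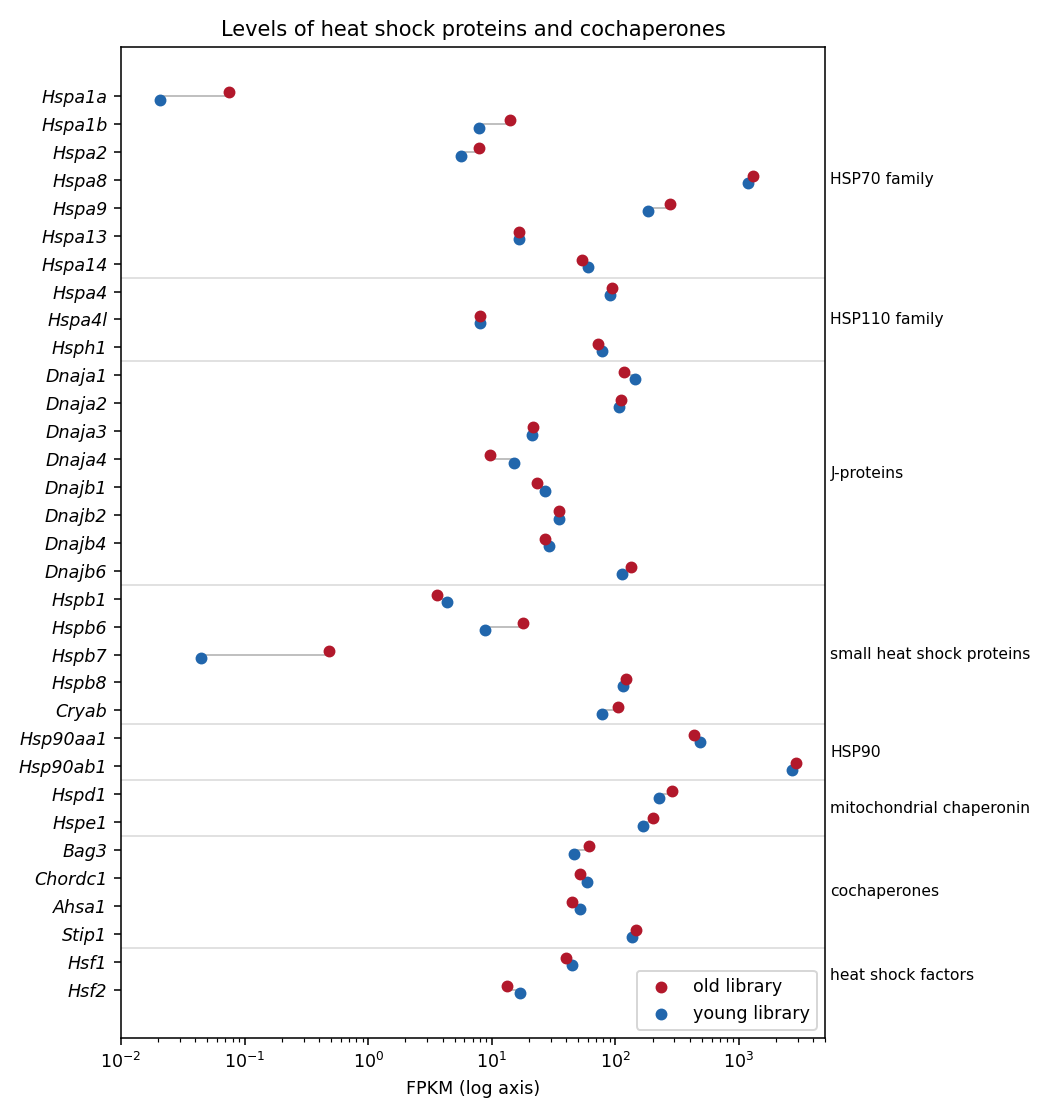
FPKM of each gene (log axis) in the old library (red) and the young library (blue), 1 library each, with genes grouped by role. The points of most genes nearly coincide over a range that runs to 2872 FPKM in the old library for Hsp90ab1. Those of Hspb6, Hspa1b and Hspa9, higher in the old library, and of Dnaja4, lower in it, stand apart. So do those of Hspa1a and Hspb7, which rest on few reads.

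The FPKM values fit library totals of 18114336 reads in the old library and 16333396 in the young. Reads recovered per gene summed to 18000106 in the old and 16230455 in the young, and 12579 and 12531 genes reached 1 FPKM. The labelled cell type was checked against its markers. Col1a1, the main collagen of bone, was at 6788 FPKM in the old and 8568 FPKM in the young library, and Runx2, an osteoblast factor, at 72.7 FPKM in the old and 92.1 FPKM in the young. Sp7, another osteoblast factor, was at 28.9 FPKM in the old and 55.5 FPKM in the young, a ratio of 0.521. Spp1, osteopontin, was at 1732 FPKM in the old and 224 FPKM in the young, a ratio of 7.74 that ranked 4 of 12561 by log2 ratio. Spp1 was further above even than any measured gene of the chaperone group and Sp7 further below, and their part in the chaperone values was not tested. Alpl was low at 3.28 and 2.78 FPKM in the old and young libraries, and Bglap, osteocalcin, had 6 and 3 reads. None of the endothelial, erythroid or adipocyte markers (5 each) was measured, and of 8 leukocyte markers Lyz2 and Cd68 were. Of 5 chondrocyte markers 3 were measured, namely Sox9, Col2a1 and Comp. Sox9 was at 51.0 FPKM in the old and 44.9 FPKM in the young, and Col2a1 at 46.8 FPKM in the old and 53.3 FPKM in the young. Comp was at 1.05 FPKM in the old and 1.41 FPKM in the young, and Acan had 0 reads in both.

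Among HSP70 genes Hspa8, the constitutive cytosolic chaperone, dominated. It had 28804 reads and 1293 FPKM in the old library, against 23768 reads and 1183 FPKM in the young. The FPKM ratio was 1.09 [1.07 to 1.11], where brackets hold a 95% counting interval of old over young. Such an interval covers counting error only and takes reads as independent, so it is too narrow where PCR copies are among them. Of the 50-base words of Hspa8, 60.9% also occur in transcripts of other genes, so reads may be split with those copies. Hspa9, mortalin, which pulls proteins into mitochondria, was at 275 FPKM in the old library and 183 FPKM in the young, on 5731 and 3439 reads. That ratio of 1.50 [1.44 to 1.57] was the largest among the 11 members of the group whose mean exceeded 100 FPKM, and 3.70% of its words are shared. Hspa9 lies on chromosome 18 (34937414 to 34954357, GRCm38), and its log2 ratio of 0.58 ranked 694 of 12561.

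Hspa2, an HSP70 gene best known from male germ cells, was at 7.81 FPKM in the old library and 5.65 FPKM in the young, a ratio of 1.38 [1.17 to 1.64]. Its log2 ratio of 0.41 was 0.27 at a pseudocount of 5, which is under 25% higher. Hspa13, whose product sits in microsomes, was even at 16.6 FPKM in both. Hspa14, which works at the ribosome, was at 53.6 FPKM in the old library and 59.9 FPKM in the young.

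The stress-inducible pair Hspa1a and Hspa1b lies on chromosome 17, at 34969190 to 34972156 and at 34956436 to 34959238. Hspa1b was at 14.1 FPKM (717 reads) in the old library and 7.86 FPKM (360 reads) in the young, a ratio of 1.80 [1.58 to 2.04] and a log2 ratio of 0.77. Hspa1a had 4 reads in the old library and 1 in the young, and no fold is given. The coding sequences of the pair align with 99.4% identity, with 8 mismatches and 3 gap columns in 1926 columns. Of their words, 65.8% for Hspa1a and 61.3% for Hspa1b occur in other genes, so how reads were divided between the pair is uncertain. Set against Hspa8 in the same library, Hspa1b FPKM came to 0.0109 [0.0101 to 0.0118] in the old and 0.00665 [0.00597 to 0.00738] in the young. These intervals did not overlap. Per length of the longest transcripts the values were 0.0280 in the old and 0.0171 in the young, so the inducible form was scarce next to the constitutive one on either length.

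The 150 bases before the start sites of the pair are shown because they differ at 1 base only, while the read numbers differ widely. They are from RefSeq on GRCm38.p6, minus strand, at chr17:34972157-34972306 for Hspa1a and chr17:34959239-34959388 for Hspa1b, with 2 facing units of a heat shock element (GAANNTTC) in capitals.
Hspa1a: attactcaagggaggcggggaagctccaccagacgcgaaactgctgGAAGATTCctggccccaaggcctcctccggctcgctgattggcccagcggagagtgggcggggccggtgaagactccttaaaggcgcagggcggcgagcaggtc
Hspa1b: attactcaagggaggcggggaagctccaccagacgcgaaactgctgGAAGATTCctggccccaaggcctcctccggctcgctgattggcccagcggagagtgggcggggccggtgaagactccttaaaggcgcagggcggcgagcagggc

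The HSP110 genes, nucleotide exchange factors of HSP70, were near even. Hspa4 was at 93.4 FPKM in the old and 90.4 FPKM in the young library, with an interval of 0.991 to 1.08. Hsph1, the stress-inducible HSP105, was at 72.1 FPKM in the old and 77.5 FPKM in the young, a ratio of 0.931 [0.880 to 0.984]. Hspa4l was lower in abundance, at 8.08 FPKM in the old and 8.05 FPKM in the young.

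The mitochondrial chaperonin genes were both higher in the old library. Hspd1, HSP60, was at 287 FPKM (6599 reads) in the old library and 226 FPKM (4691 reads) in the young, a ratio of 1.27 [1.22 to 1.32]. Hspe1, its HSP10 lid, was at 200.0 FPKM (3148 reads) in the old library and 166 FPKM (2362 reads) in the young, a ratio of 1.20 [1.14 to 1.27]. The log2 ratios were 0.34 and 0.26, and that of Hspe1 reached 25% higher when old values were divided by the median ratio of measured genes (0.33). Hspe1 FPKM over Hspd1 FPKM was 0.698 [0.669 to 0.728] in the old and 0.736 [0.701 to 0.774] in the young, and these intervals overlapped. Per length of the longest transcripts that ratio was 1.20 in the old and 1.27 in the young, so which of the pair is more abundant depends on the length used. Pseudogene copies limit both values, with 45.2% of Hspd1 words and 25.8% of Hspe1 words found in other genes.

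Hspd1 and Hspe1 stand head to head on chromosome 1, and their annotated ends overlap by 112 bases (55088132 to 55088243). The stretch before the Hspe1 start is shown because both genes share it, at chr1:55087998-55088147 (RefSeq, GRCm38.p6, plus strand), with a run of alternating heat shock units in capitals that begins 89 bases before the Hspe1 start.
Hspe1: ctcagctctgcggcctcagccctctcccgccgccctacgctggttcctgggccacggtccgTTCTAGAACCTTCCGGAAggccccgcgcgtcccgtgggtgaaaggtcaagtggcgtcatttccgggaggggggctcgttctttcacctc

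Other mitochondrial chaperone and protease genes had log2 ratios above 0 in 4 cases (36.4%) and below 0 in 7, near the 40.4% of all measured genes above 0. All 11 listed were measured, and their median log2 ratio was −0.14. On the FPKM + 1 scale none was 25% higher or 20% lower, against 12.3% and 17.2% of all measured genes. On FPKM itself the ratio of Grpel2 was 0.794, just past 20% lower. Trap1, the mitochondrial HSP90, was at 79.9 FPKM in the old library and 89.5 FPKM in the young. The largest differences were those of Grpel2 (6.89 FPKM in the old, 8.68 in the young), a nucleotide exchange factor of Hspa9, the protease Lonp1 (30.3 in the old, 26.1 in the young) and the import protein Timm44 (41.6 in the old, 48.0 in the young). Dnaja3, the J-protein partner of Hspa9, was even at 21.5 FPKM in the old and 21.2 FPKM in the young.

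**Figure D2:**
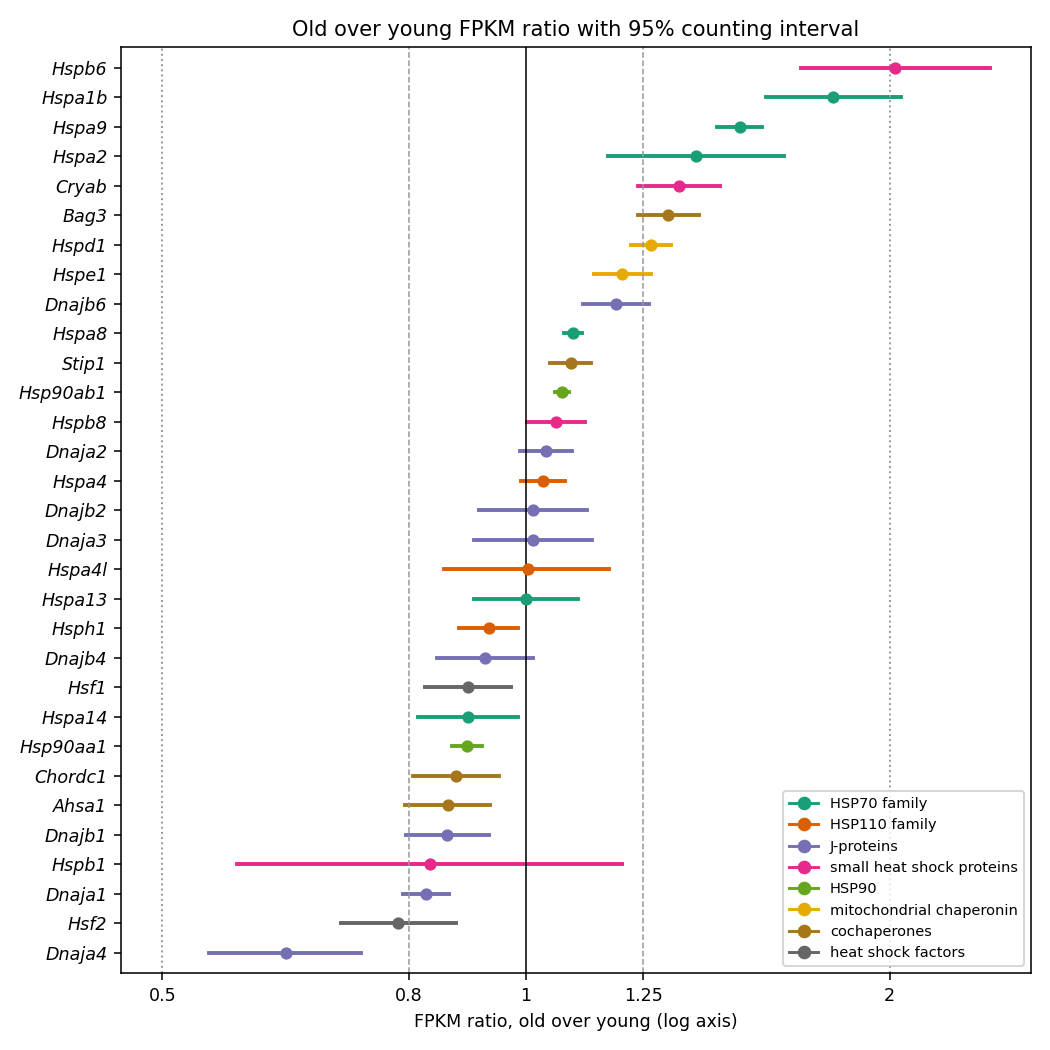
FPKM ratio, old over young (log axis), for the 31 measured genes in order of size, with 95% counting intervals as bars and roles as colours; dashed lines mark 25% higher and 20% lower, and dotted lines 2-fold. Hspb6 is at the top with 2.02 and Dnaja4 at the bottom with 0.632. Intervals lie above 1, below it and across it, and the share of all measured genes in each class was not computed. Those of Hsf1, Hsph1 and Hspa14 lie below 1 but reach above 0.952, the median FPKM ratio of all measured genes.

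The small heat shock proteins split by gene. Hspb6, HSP20, an actin-associated chaperone prominent in muscle, was at 17.8 FPKM (403 reads) in the old library and 8.83 FPKM (180 reads) in the young. The ratio was 2.02 [1.69 to 2.42] and the log2 ratio 0.94, ranked 286 of 12561, which passed 2-fold at a pseudocount of 0.1 (1.01). Of its exon bases 8.79% overlap other genes, and it lies on chromosome 7 (30552178 to 30555443). Cryab, alpha-B crystallin, a chaperone of desmin and actin filaments, was at 105 FPKM (1586 reads) in the old library and 78.6 FPKM (1068 reads) in the young, a ratio of 1.34 [1.24 to 1.45]. Hspb7, the cardiac form, had 24 reads in the old library and 2 in the young, a ratio of 10.8 [2.69 to 94.5] that rests on few reads.

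The other small heat shock genes were close to even or too low to tell. Hspb8, which works with Bag3 to clear misfolded proteins, was at 122 FPKM in the old library and 115 FPKM in the young. Hspb1, HSP25, a main heat-inducible protein of many cells, had 60 reads in the old and 65 in the young, and its interval of 0.576 to 1.20 could not show a difference. Other genes hold 54.9% of its words, so reads may be split with those copies and its level is uncertain. Hspb2, whose gene lies head to head with Cryab and overlaps it by 1030 bases, was at 3.50 FPKM in the old and 3.69 FPKM in the young, and its interval of 0.599 to 1.50 holds both even and the ratio of Cryab.

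Since Hspb6, Hspb7 and Cryab are abundant in muscle, muscle markers were set beside them. Of 8 markers 1 was measured, Des, at 1.71 FPKM in the old library and 1.11 FPKM in the young. The list summed to 2.22 FPKM in the old and 1.64 FPKM in the young, with Myod1, Actn2 and Ryr1 at 0 reads in both. Of 6 smooth muscle markers, Des among them, 4 were measured, and the list summed to 1408 FPKM in the old and 1626 FPKM in the young. Myh11, which defines mature smooth muscle, had 2 reads in the old library and 0 in the young. Acta2, which stromal cells also express, was at 1171 FPKM in the old and 1404 FPKM in the young, Tagln at 157 FPKM in the old and 142 FPKM in the young (1.10 [1.04 to 1.17]), and Smtn at 77.1 FPKM in the old and 78.2 FPKM in the young. Their part in the small heat shock values was not tested.

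The HSP90 paralogs lay on opposite sides of even. Hsp90ab1, the constitutive form and the most abundant gene of the group, was at 2872 FPKM in the old library and 2682 FPKM in the young, a ratio of 1.07 [1.06 to 1.09]. Hsp90aa1, the stress-inducible form, was at 429 FPKM in the old library and 481 FPKM in the young, a ratio of 0.893 [0.868 to 0.919], and other genes hold 60.98% of its words. Within a library Hsp90aa1 came to 0.149 [0.146 to 0.153] of Hsp90ab1 FPKM in the old and 0.179 [0.175 to 0.183] in the young. On the reads per kilobase of the longest transcript Hsp90ab1 led too, but Hspe1 then ranked 3 and Hsp90aa1 4 in the old library. The mean annotated length that fits the FPKM values is 1186 nt for Hsp90aa1, against 3281 nt for its longest transcript. For Hspe1 these lengths are 869 and 964 nt, and for Hsp90ab1 881 and 2520 nt.

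Cochaperones of HSP90 and HSP70 differed by gene. Bag3, which hands damaged proteins to autophagy, was at 60.9 FPKM (2826 reads) in the old library and 46.5 FPKM (1944 reads) in the young, a ratio of 1.31 [1.24 to 1.39] with no shared words. Stip1, HOP, which links HSP70 to HSP90, was at 148 FPKM in the old and 136 FPKM in the young. Ahsa1, the activator of HSP90 ATP hydrolysis, was at 44.6 FPKM in the old and 51.8 FPKM in the young, a ratio of 0.861 [0.794 to 0.934]. Chordc1, an HSP90 partner, was at 51.4 FPKM in the old and 58.8 FPKM in the young, a ratio of 0.875 [0.806 to 0.950]. The counting intervals of these genes exclude 1, and the size of the differences against the spread between cultures is unknown.

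J-proteins showed no common direction, with 4 of 8 (50%) above 0 and 4 below, where 40.4% of all measured genes lay above 0. Dnaja4 had the lowest ratio of the whole group, at 9.61 FPKM (324 reads) in the old library and 15.2 FPKM (462 reads) in the young, a ratio of 0.632 [0.547 to 0.730]. Its exons overlap those of Wdr61 over 44.1% of their bases, so that value is uncertain. Dnaja1, a main partner of HSP70, was at 118 FPKM in the old and 143 FPKM in the young, a ratio of 0.827 [0.791 to 0.864], though other genes hold 35.4% of its words. Dnajb1, the classical inducible HSP40, was at 23.3 FPKM in the old and 27.1 FPKM in the young, a ratio of 0.861 [0.795 to 0.931]. Dnajb6, which keeps aggregation-prone proteins apart, was at 135 FPKM in the old and 114 FPKM in the young, a ratio of 1.19 [1.11 to 1.27], though other genes hold 36.9% of its words. Dnaja2, Dnajb2 and Dnajb4 had log2 ratios between −0.11 and 0.05.

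Hsf1 and Hsf2 were lower in the old library as deposited, with counting intervals below 1. Hsf1 was at 39.9 FPKM (1169 reads) in the old and 44.6 FPKM (1177 reads) in the young, a ratio of 0.896 [0.825 to 0.972]. The upper end of that interval lies above 0.952, the median FPKM ratio of all measured genes, so after division by that median the interval would hold 1. Hsf2, a factor active in development, was at 13.2 FPKM (613 reads) in the old and 16.8 FPKM (705 reads) in the young, a ratio of 0.784 [0.702 to 0.875]. Its log2 ratio of −0.33 was −0.26 both at a pseudocount of 5 and after division by the median ratio of measured genes. When rescaled by TMM, a trimmed mean of log ratios, it was −0.28. Each of these is less than 20% lower. Activity of HSF1 depends on its protein state and was not measured.

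**Figure D3:**
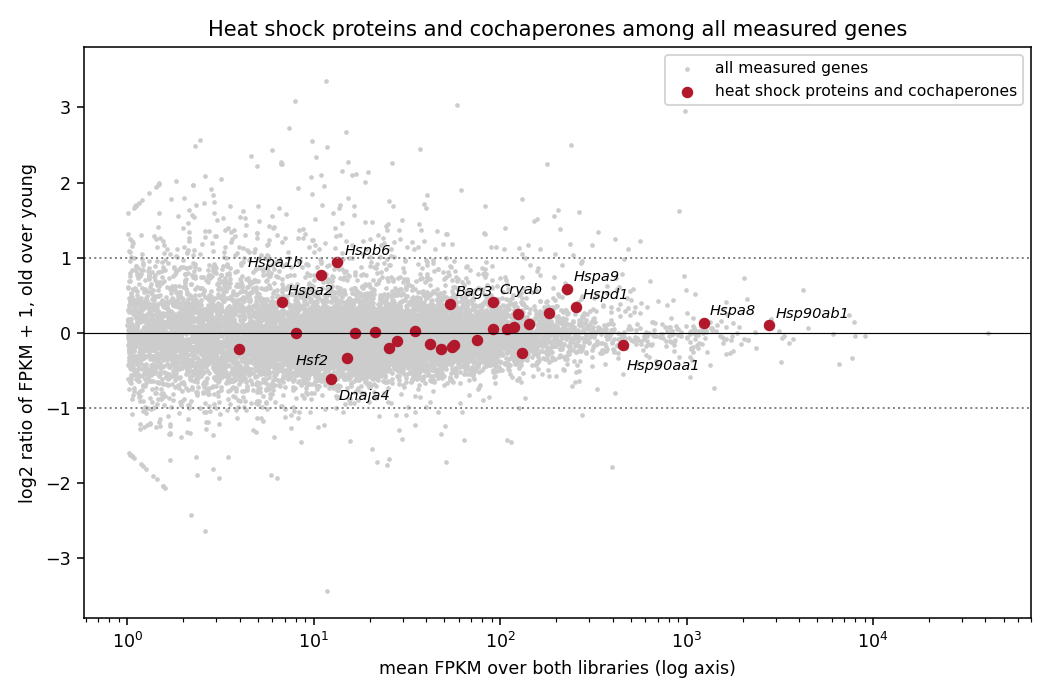
Log2 ratio of FPKM + 1, old over young, against mean FPKM (log axis) for all 12561 measured genes (grey) and the 31 measured heat shock proteins and cochaperones (red), with names for those at least 25% higher or 20% lower, or above 400 FPKM. All red points lie inside the dotted lines at 2-fold, the highest being Hspb6 at 0.94.

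Promoters were searched for a heat shock element of 3 adjoining 5-base units NGAAN in alternating direction, on either strand, in RefSeq windows from 250 bases before to 50 after each start. Of the 33 genes, 26 were in the promoter table, and 5 of them (19.2%, exact interval 6.55% to 39.4%) held the element, against 179 of 27025 genes (0.662%). These were Hspd1, Hspe1, Dnajb6, Hsph1 and Chordc1. Their log2 ratios were 0.34, 0.26, 0.25, −0.10 and −0.19 in that order, so genes with this element lay on both sides of even. The matches of Hspd1 and Hspe1 are the same bases read on opposite strands, so that run counts for both genes. The exact interval takes genes as independent and makes no allowance for this. Hspa8, Hspa9, Hspa13, Cryab, Hsp90aa1, Hsp90ab1 and Hsf1 were not in the promoter table and could not be searched. Bag3, Dnaja1, Dnaja4, Dnajb4, Hspa1a, Hspa1b, Hspb1, Hspb6 and Hspb8 held 2 facing units but not 3. A match describes letters only, and binding of HSF1 was not measured. Further stretches from Dnajb6 and Chordc1 are shown, one from a gene that was higher and one from a gene that was lower in the old library, with the elements in capitals. They are chr5:29735778-29735897 and chr9:18292167-18292291, both on the plus strand, and that of Chordc1 runs 25 bases past its start.
Dnajb6: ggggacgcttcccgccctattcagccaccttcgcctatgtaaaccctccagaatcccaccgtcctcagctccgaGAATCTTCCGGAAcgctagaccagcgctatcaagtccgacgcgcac
Chordc1: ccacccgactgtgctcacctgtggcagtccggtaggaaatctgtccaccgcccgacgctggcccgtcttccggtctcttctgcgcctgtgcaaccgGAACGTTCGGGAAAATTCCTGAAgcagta

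Of 80 further chaperone genes on 8 lists, 67 were measured. In the old library 4 (5.97%) were at least 25% higher and 10 (14.9%) at least 20% lower on the FPKM + 1 scale, against 12.3% and 17.2% of all measured genes, so the lower share was near that of all genes. The median log2 ratio was −0.10. The 8 subunits of TRiC, the cytosolic chaperonin that folds actin and tubulin, lay between −0.10 for Cct2 and 0.09 for Cct5, with none past either size. Other HSP90 cochaperones had 13 of 14 log2 ratios below 0, and a median of −0.17, where 40.4% of all measured genes lay above 0. Of these 14, 3 (21.4%) were at least 20% lower, near the 17.2% of all, and none was 25% higher. Ahsa2 (38.0 FPKM in the old, 54.0 in the young, with 55.9% of words shared), Cdc37l1 (41.0 in the old, 53.2 in the young) and Tomm34 (27.2 in the old, 34.4 in the young) were those 3. Other HSP70 cochaperones had 2 of 8 genes at least 25% higher and none 20% lower. These were Bag2, an inhibitor of the ubiquitin ligase Stub1, at 39.8 FPKM in the old and 28.3 FPKM in the young, and St13, HIP, at 138 FPKM in the old and 109 FPKM in the young. Bag5 (23.0 in the old, 28.6 in the young) had the next largest difference.

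Other J-proteins had 1 of 14 measured genes (7.14%) at least 25% higher and 4 (28.6%) at least 20% lower, with a median of −0.22. The shares of all measured genes were 12.3% and 17.2%. Dnajc7 (91.2 FPKM in the old, 128 in the young) and Dnajc18 (22.2 in the old, 29.7 in the young) were among the lower genes. Dnajb5 was also lower and Dnajc8 was the higher gene, both named after their values were seen, with log2 ratios of −0.32 and 0.34. Of 6 prefoldin subunits, which pass actin and tubulin to TRiC, 1 (16.7%) was at least 20% lower, near the 17.2% of all. This was Pfdn5 (217 in the old, 282 in the young). Vbp1 (41.1 in the old, 51.5 in the young, a ratio of 0.798 on FPKM itself that fell short on FPKM + 1) and Pfdn1 (47.9 in the old, 51.3 in the young) were next, and the median was −0.06. In the other HSP70 and small heat shock list, 3 of 8 were measured. They were Hspb11, at least 20% lower at 22.3 FPKM in the old and 33.8 in the young, Hspa12b, at least 25% higher at 14.7 in the old and 10.0 in the young, and Hspb2. The other factors and regulators had 3 of 5 measured and 1 of these 3 (33.3%) at least 20% lower, against 17.2% of all. It was Hsbp1, which binds HSF1, at 149.7 FPKM in the old and 189 FPKM in the young. Hsf4 (6.48 in the old, 7.31 in the young) had a ratio of 0.887 [0.716 to 1.10], close to that of Hsf1 on fewer reads, and Hspbap1 (2.30 in the old, 2.39 in the young) one of 0.961 [0.765 to 1.21].

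**Figure D4:**
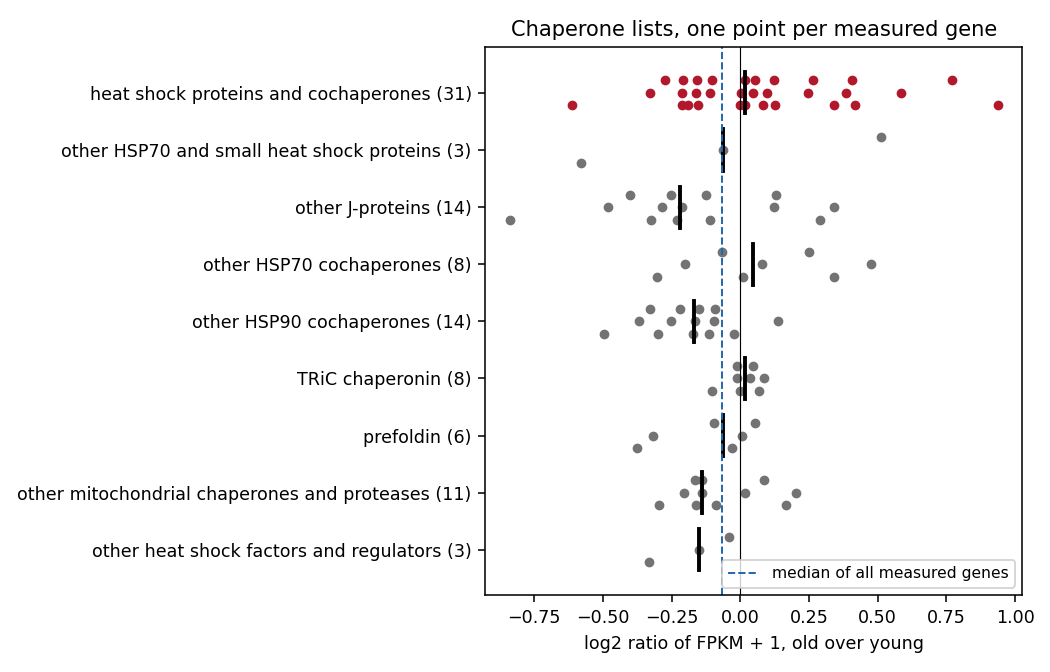
Log2 ratio of FPKM + 1, old over young, of every measured gene of the group (red) and of 8 further chaperone lists (grey), with the number measured in parentheses, the median of each list as a black bar and the median of all measured genes as a dashed line at −0.07. The TRiC subunits are tightly packed near 0, and 13 of 14 other HSP90 cochaperones lie left of it.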

How the data were processed

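The deposited table holds 1 FPKM value per gene for the old and for the young library, as the authors computed it. Tools named in the submitters' processing notes are HTSeq, STAR, edgeR and fastp, with mm10 as the build; for the task and version of each, the annotation and any strand setting, nothing was given in the sources used here. Gene symbols, lengths and positions came from GENCODE M21 (GRCm38). FPKM multiplied by the rounded mean transcript length fell on whole reads within 0.01 for 97.6% of values above 0 in either library. These reads gave Clopper-Pearson counting intervals and no test. For Hspa4l they were not whole and were rounded. Deposited FPKM values were turned into log2 ratios of FPKM + 1, old over young, for genes averaging 1 FPKM or more.

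Members, lists, thresholds and alternatives were chosen with earlier results of these data known. All 33 genes are reported, with up to 3 of each further list by size of difference, of which 1 gene is not reported here; Hspb2, Trap1 and marker genes were added for the comparisons they stand in. Shared sequence was searched as 50-base words every 25 bases in all other genes' transcripts. Without stated strand use, reads of overlapping genes cannot be separated. Ratios and intervals were tested on simulated independent reads, as the intervals themselves assume. That check held no PCR copies, shared sequence or spread between cultures, so it cannot speak to those limits. Python 3.11.15, scipy 1.17.1 and Biopython 1.88 were used.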

Additional observations from a re-analysis of the deposited data

How the results depend on the processing

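Alternatives were pseudocounts of 0.1 and 5, no filter, a mean of at least 10 FPKM, and 3 scalings (without the 10 most abundant genes, by the median ratio of measured genes, by TMM, a trimmed mean of log ratios computed without edgeR). Pseudocounts and filters cannot change a sign, so only the 3 scalings bear on it. Under those, signs held for 29 of the 31 measured genes, and Hspa13 and Hspa4l, both near even, changed. The count at 2-fold higher was 1, Hspb6, at a pseudocount of 0.1 and after division by the median ratio, against 0. The count at least 20% lower was 1 at a pseudocount of 5, after division by the median ratio, by TMM, and without the 9 genes that share over 20% of their words, against 2. The gene left was Hsf2 without those 9 genes, and Dnaja4 under the other alternatives just named. For the further lists, where alternatives were chosen after seeing the data, 5 genes were at least 20% lower after division by the median ratio and 14 at a pseudocount of 0.1, against 10; for all measured genes the shares were 12.4% and 19.7%, against 17.2%. With 2 units in place of 3, 53.8% of promoters of the group and 17.0% of all held a heat shock element. The median log2 ratio ranged from 0.01 to 0.09. No paired analysis was possible because each age has 1 library. Few reads limit Hspa1a, Hspb7 and Hspb1, and shared words also limit Hspa1a (65.8%) and Hspb1 (54.9%). The spread between animals is unknown.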
